A study of Mus musculus with 8 samples.

Results

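The peaks described here are sites at the ends of protein-coding genes where the cohesin protein SMC1 was found by ChIP-seq both in resting mouse cortical neurons and after NMDA. A line of the resting peak list was taken when an NMDA peak overlapped it by at least 1 bp and its midpoint lay within 1 kb of the start or end of a protein-coding gene. An NMDA peak overlapped 1321 of all 12359 resting peaks (10.7%). It overlapped 639 of the 2910 resting peaks that met the distance limit (22.0%). The 639 peaks lay at 688 genes, 578 at 1 gene and 61 at 2 genes. They fell under 631 of the 1684 NMDA peaks. Presence in both lists and the distance to a gene chose these peaks, so neither is a result, and their strengths are given as a description.

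The cultures were wild-type cortical neurons from embryonic day 16 Swiss-Webster mice, used at day 13 in vitro. Resting cultures carried the treatment label None, and the others received 50 µM NMDA for 10 min and recovered for 50 min in medium without it. Each condition had 2 SMC1 ChIP samples and 2 input DNA samples, called biological replicates by the labels, and the authors deposited 1 list of reproducible peaks per condition. The growth protocol also names etoposide, but no treatment label does. Whether cultures came from pooled litters is not stated. Cultures of dissociated cortex can also hold glia, and a peak list gives no expression with which to check the cell type. Peak strength is the authors' −log10 p, given for each of 2 replicate columns and summed. It grows with library depth, which is unknown from these files, so strengths of the resting and NMDA lists are set side by side without a test.

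SMC1 pairs with SMC3 in the ring-shaped cohesin complex, which encircles DNA and extrudes loops. Extrusion can stop at sites bound by the insulator protein CTCF. Cohesin is also found at active promoters, where its loader NIPBL is recruited. Promoters of widely expressed genes are mostly CpG-rich, meaning that the dinucleotide CG is not depleted as it is in the rest of the genome. In neurons, calcium entry through NMDA receptors drives transcription from many promoters, and cohesin loops connect promoters with enhancers.

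The promoters at the strongest of these peaks are shown because their base composition is compared with that of other promoters further on. The sequences are RefSeq, build GRCm38.p6, from the 250 bases before the listed gene start, 5′ to 3′ on the gene's strand, with each CG in capitals. The genes are the 6 with the highest resting strength among those with a listed promoter at the gene's outer start.
Ptpre chr7:135537574-135537823, plus strand: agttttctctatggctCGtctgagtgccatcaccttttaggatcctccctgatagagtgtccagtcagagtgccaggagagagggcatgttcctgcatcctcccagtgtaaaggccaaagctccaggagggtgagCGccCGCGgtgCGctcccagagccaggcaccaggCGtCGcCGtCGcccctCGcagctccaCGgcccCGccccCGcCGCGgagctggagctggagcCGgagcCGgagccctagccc
Snx18 chr13:113618565-113618814, minus strand: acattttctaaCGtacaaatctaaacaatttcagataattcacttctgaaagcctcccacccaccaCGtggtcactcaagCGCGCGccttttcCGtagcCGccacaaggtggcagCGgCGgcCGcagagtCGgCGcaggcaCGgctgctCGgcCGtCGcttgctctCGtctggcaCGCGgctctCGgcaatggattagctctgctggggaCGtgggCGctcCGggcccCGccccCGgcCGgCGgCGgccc
Ddx20 chr3:105687572-105687821, minus strand: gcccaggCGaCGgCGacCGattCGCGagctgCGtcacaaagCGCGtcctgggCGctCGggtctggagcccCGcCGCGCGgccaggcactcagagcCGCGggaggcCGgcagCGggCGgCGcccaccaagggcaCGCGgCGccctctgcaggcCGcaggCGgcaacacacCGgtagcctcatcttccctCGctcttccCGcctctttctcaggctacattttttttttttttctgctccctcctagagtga
Mycn chr12:12941837-12942086, minus strand: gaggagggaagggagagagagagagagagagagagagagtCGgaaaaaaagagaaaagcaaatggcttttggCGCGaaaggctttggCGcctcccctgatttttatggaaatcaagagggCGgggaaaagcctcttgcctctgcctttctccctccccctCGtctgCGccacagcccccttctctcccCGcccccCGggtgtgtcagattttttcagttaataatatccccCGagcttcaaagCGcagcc
Sema5a chr15:32244563-32244812, plus strand: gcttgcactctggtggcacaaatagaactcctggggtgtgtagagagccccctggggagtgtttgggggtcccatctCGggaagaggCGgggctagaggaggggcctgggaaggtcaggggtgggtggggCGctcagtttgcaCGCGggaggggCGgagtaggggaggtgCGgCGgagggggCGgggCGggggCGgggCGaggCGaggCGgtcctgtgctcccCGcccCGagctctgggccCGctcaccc
Mtnr1a chr8:45068857-45069106, plus strand: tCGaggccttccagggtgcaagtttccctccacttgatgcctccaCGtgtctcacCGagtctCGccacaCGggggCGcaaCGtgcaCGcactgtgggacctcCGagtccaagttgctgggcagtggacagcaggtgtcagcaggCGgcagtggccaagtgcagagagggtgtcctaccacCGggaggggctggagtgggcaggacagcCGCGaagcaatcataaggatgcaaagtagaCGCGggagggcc
The sequence before Snx18 held 28 CG and that before Ddx20 held 29. Ptpre and Sema5a had 17 each, Mtnr1a 15 and Mycn 11. Over the full 300-base window, which runs on 50 bases into the gene, observed over expected CpG was 1.10 at Snx18, 1.02 at Ddx20, 0.66 at Sema5a, 0.62 at Ptpre, 0.59 at Mtnr1a and 0.58 at Mycn. The listed Ddx20 start lay 217 bp inside the gene's outer boundary, and the other 5 starts lay at it. The resting peak covered the printed sequence in each gene but Mycn, whose peak lay further upstream.

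The strongest of the 639 peaks at rest lay at Ptpre, Arhgap22 and Snx18. At Ptpre, a receptor-type tyrosine phosphatase, the resting replicate columns had −log10 p values of 175 and 110 and the NMDA columns 25.1 and 31.5. This peak (chr7:135537145-135538331) was second in the whole resting list and its NMDA peak 15th of its own list. At Arhgap22, a GTPase-activating protein, the resting columns were 105 and 116, and the NMDA columns 26.7 and 8.17. At Snx18, a sorting nexin of membrane traffic, they were 101 and 86.9, against 52.3 and 14.6. In these 3 genes every resting value lay above every NMDA value, and the NMDA columns differed from each other more than the resting columns did at Arhgap22 and Snx18.

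The MYC family genes Mycn and Mycl were both among the 20 strongest. Mycn had 78.9 and 63.1 in the resting columns and 22.8 and 11.2 in the NMDA columns. Mycl had 69.5 and 48.8 at rest, and 40.9 and 7.04 after NMDA. The neuronal differentiation factor Sox11 had 52.6 and 82.0 at rest and 21.8 and 14.2 after NMDA, under a resting peak 3203 bp wide. The semaphorin Sema5a, an axon guidance protein, had 87.7 and 53.2 at rest against 9.13 and 20.3. Wnt7a, a secreted Wnt ligand, had 79.3 and 35.9 against 18.4 and 15.8. Ddx20, an RNA helicase of the complex that assembles spliceosomal particles, had 91.0 and 71.5 against 23.7 and 22.0. Of the 20 strongest peaks, Ddx20 had the smallest gap between its NMDA columns.

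The other 11 of the 20 strongest lay at Csrp1, Mtnr1a, Megf10, Ccdc110, Erlin2, Rerg, 1700001O22Rik, Scnn1g, Ahcyl1, Plcb1 and Chd9, with summed resting strengths of 113 to 173. Among these, Mtnr1a, the gene of a melatonin receptor, had the weakest NMDA peak, with 11.4 and 7.70. Plcb1, a phospholipase C of G protein signalling, had the strongest, with 25.1 and 20.7. The plot of replicate columns shows all 20.

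**Figure D1:**
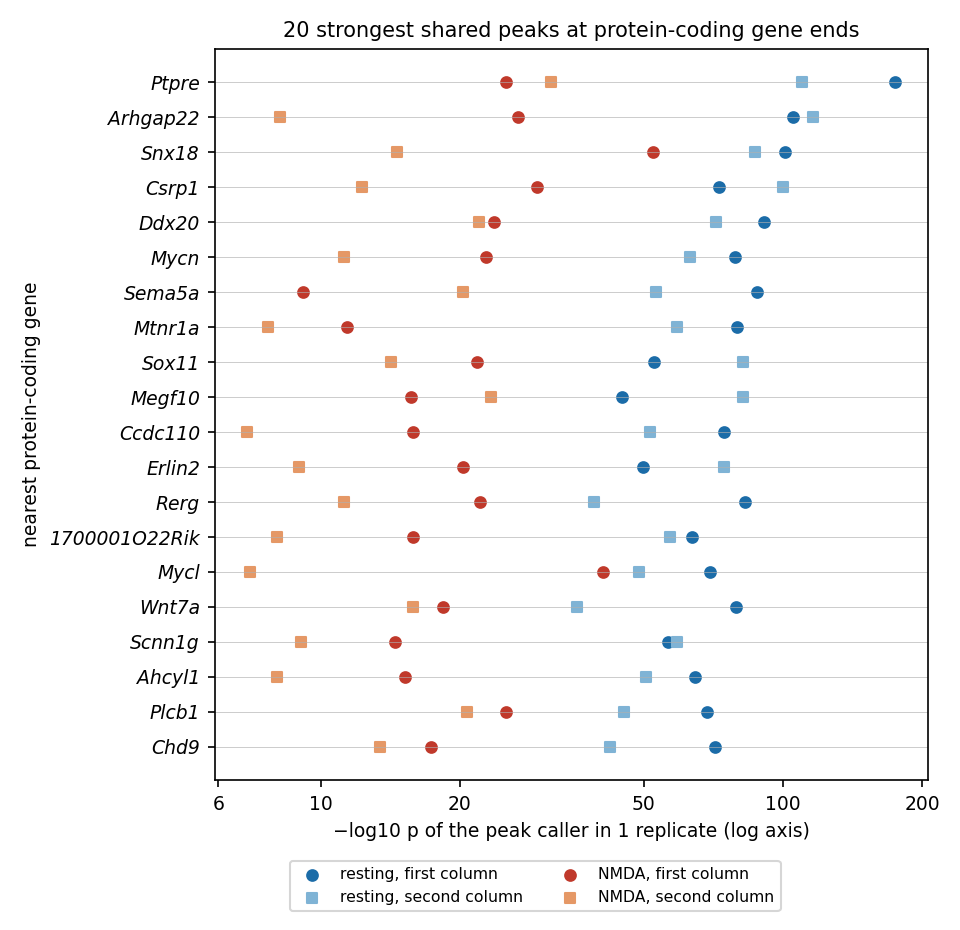
Each row is 1 of the 20 shared gene-end peaks with the highest resting strength, named by the nearest protein-coding gene, and each point is the peak caller's −log10 p in 1 replicate column on a log axis. Resting values (blue) run from 35.9 to 175 and NMDA values (red and orange) from 6.92 to 52.3, and the values are not corrected for library depth.

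The peaks with the strongest NMDA signal were partly other genes. Tle3, a Groucho-type corepressor, had the highest NMDA strength of the 639 peaks, 70.4 (columns 50.1 and 20.3), with a resting strength of 41.5 (18.2 and 23.3). Its resting peak (chr9:61370113-61374870) was also the widest, at 4758 bp, and its NMDA peak spanned 4363 bp. Snx18 followed with 66.9, and Igf1r, the receptor of insulin-like growth factor, with 62.7 after NMDA and 94.3 at rest. Next came Ptpre (56.5), the AP-1 gene Jun (55.4, with 72.0 at rest), the synaptic adhesion gene Cadm1 (54.8, with 68.6) and Enc1 (51.7, with 111). Mycl (48.0), the homeodomain factor gene Cux1 (47.8) and the zinc finger repressor gene Snai1 (47.7, with 98.8 at rest) completed the 10. Cux1 had a resting strength of 24.2 and ranked 8793rd in the resting list, but 31st in the NMDA list, where its peak was 2601 bp wide against 855 bp at rest. Of these 10 genes, 3 were also among the 20 strongest at rest: Ptpre, Snx18 and Mycl.

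Over all 639 peaks, summed resting strength ran from 16.9 to 285 with a median of 35.8 (quartiles 25.8 and 55.1). The strength of the NMDA peak over each ran from 17.9 to 70.4 with a median of 24.3 (quartiles 21.2 and 29.3). The whole lists had medians of 30.2 at rest and 23.0 after NMDA. The single-column medians were 19.2 and 16.7 at rest, and 13.4 and 10.9 after NMDA. Resting strengths had the wider spread, as the plot of both strengths shows. The global irreproducible discovery rate (IDR) estimates what share of peaks do not repeat between replicates, among those ranked at least as reproducible. For 441 peaks (69.0%) the resting IDR was up to 0.01, and 189 (29.6%) had an NMDA IDR up to 0.01. Both held for 155 (24.3%).

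**Figure D2:**
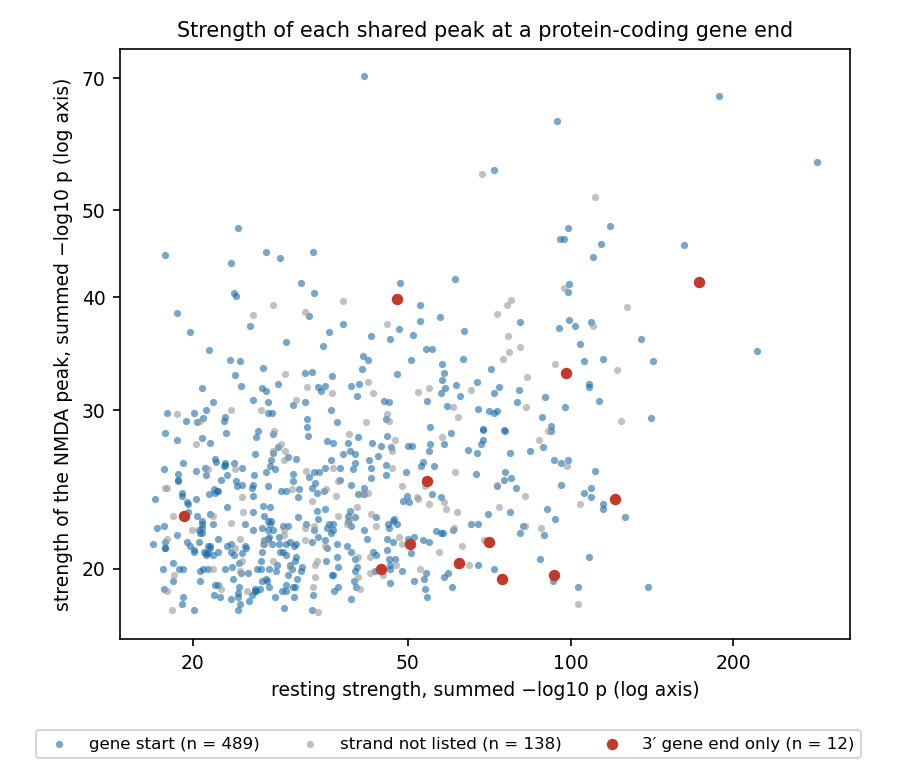
Each point is 1 of the 639 shared gene-end peaks, with its summed −log10 p in the resting list on the x axis and that of the NMDA peak over it on the y axis, both on log axes. Points cover 16.9 to 285 at rest and 17.9 to 70.4 after NMDA, and the 12 peaks at 3′ gene ends only (red) have a resting median of 66.4.

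As a description across peaks, which share 4 libraries, the resting columns ranked the 639 peaks alike (Spearman correlation 0.62) and the NMDA columns did not (−0.068). The first NMDA column had a Spearman correlation of 0.28 with the first resting column and 0.24 with the second. The second NMDA column had 0.13 and 0.085. Summed strengths of both lists had a Spearman correlation of 0.31. The deposited lists keep peaks that pass an IDR limit on these same columns, and the NMDA sums lie near the lowest value kept (17.9, with a median of 24.3), so the correlation of the NMDA columns does not measure how well the replicates repeat.

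Most NMDA peaks lay squarely over the resting peaks. An overlap of at least 1 bp was part of the choice, so the extent of overlap and the distance between midpoints are descriptions. The smallest overlap, at Foxo3, covered 10.0% of the shorter peak. The overlap covered a median of 99.7% of the shorter peak (lower quartile 90.5%), and 626 of 639 overlaps covered at least 50% of it. Midpoints of the resting and NMDA peaks were a median of 154 bp apart. Median widths were 1163 bp for the resting peaks (269 to 4758 bp) and 1183 bp for the NMDA peaks (441 to 4363 bp), and the NMDA peak was the wider in 307 of 639 cases. The widest resting peaks after Tle3 were at the phosphatase gene Dusp4 (3608 bp), Cadm1 (3462 bp), the synaptic scaffold gene Homer1 (3296 bp) and Sox11.

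At some genes 1 NMDA peak spanned a pair of resting peaks. This held for 10 NMDA peaks, and 12 genes had 2 of the 639 peaks within 1 kb of their ends. The cytokine signalling inhibitor gene Socs1 had resting peaks with strengths of 48.3 and 31.7 under 1 NMDA peak of 2837 bp and strength 41.5. The stress-response gene Sesn3 had 33.4 and 27.3 at rest under an NMDA peak with 44.9. Nes, the intermediate filament gene nestin, had 39.3 and 24.7 under an NMDA peak with 24.8. The guanine nucleotide exchange factor gene Rapgef2 had 26.9 and 20.8 under an NMDA peak with 31.7.

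Whether the gene end was a 5′ start or a 3′ end was not part of the choice and was examined next. Strand was taken from the RefSeq promoter table, which holds 17492 of the 21900 protein-coding genes. The shared peaks lay at starts: of 501 peaks that could be classed, 489 were within 1 kb of a start (97.6%, exact 95% interval 95.8 to 98.8%) and 12 near 3′ ends alone. A peak near a known start counted as a start even beside a gene without a listed strand. A peak near a known 3′ end beside such a gene was left out, which raises the share at starts in each group. In all, 138 peaks (21.6%) were left out because no start was known and a strand was not listed. The same held for 452 of 2271 resting-only peaks (19.9%) and 57 of 306 NMDA-only peaks (18.6%) at protein-coding gene ends. Of resting-only peaks, 1576 of 1819 were at a start (86.6%, 85.0 to 88.2%), and of NMDA-only peaks 246 of 249 (98.8%, 96.5 to 99.8%).

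The difference from resting-only peaks was 10.96 percentage points (odds ratio 6.28, adjusted p = 2.31e-14 by Fisher's exact test over peaks, two-sided, Benjamini-Hochberg over 6 tests). The difference of −1.19 points from NMDA-only peaks did not pass (adjusted p = 0.458, the same exact test). With a limit of 2 kb, chosen after seeing the data, it was −3.81 points and passed (adjusted p = 0.00331, exact test). Shared peaks were also wider, with a median of 1163 bp against 823 bp, and stronger, with a median of 35.8 against 25.6 in resting-only peaks at gene ends. Among peaks wider than the median of the resting list the shares were 436 of 442 and 1228 of 1307, a difference of 4.69 points (adjusted p = 0.000101, exact test). Within strata of resting strength and width the pooled odds ratio was 4.95 (95% interval 2.61 to 9.40). Peaks are not replicates of a condition, and these tests describe 1 list per condition.

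The 12 shared peaks at 3′ ends alone had resting strengths from 19.3 to 173 with a median of 66.4, while the 489 at starts had a median of 34.0. Their NMDA peaks had medians of 22.1 and 24.3. The strongest lay 881.5 bp from the 3′ end of Csrp1, which encodes a LIM domain protein of the cytoskeleton, with resting columns of 72.9 and 100 and NMDA columns of 29.3 and 12.3. Ror2, a receptor for Wnt ligands, had 47.0 and 51.1 at rest and 22.4 and 10.6 after NMDA, 268.5 bp from the gene's end. Id2, an inhibitor of basic helix-loop-helix factors, had 23.5 and 47.2 against 13.4 and 8.03. The others were near 1700001O22Rik, Dcp1b, Mab21l3, Igsf3, B3gat1, Gm51999, Gm45929, Faap100 and Nacc2. These 12 form a small group, and the difference in strength was not tested.

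Around outer gene starts, the peak midpoints leaned into the gene. Distances run from the gene's outer boundary, so a peak at a start further inside counts as inside the gene. The midpoint of the resting peak lay a median of 186 bp inside the gene (quartiles −32.0 and 470 bp, n = 489 peaks), and that of the NMDA peak 162 bp inside (−44.0 and 436 bp). Summits lay closer, at medians of 115 bp inside at rest (quartiles −105 and 398 bp) and 114 bp after NMDA (−79.0 and 387 bp). Midpoints were inside the gene in 348 of 489 resting peaks (71.2%) and 347 of 489 NMDA peaks (71.0%). The resting peak covered the start itself in 409 cases (83.6%), the NMDA peak in 420 (85.9%), both in 376 (76.9%) and neither in 36 (7.36%). Resting-only peaks had a median of 140 bp inside the gene and 69.0% of midpoints inside, and NMDA-only peaks 114 bp and 71.1%. The NMDA midpoint was nearer to the start than the resting one in 256 of 489 cases (52.4%). These positions were not tested.

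**Figure D3:**
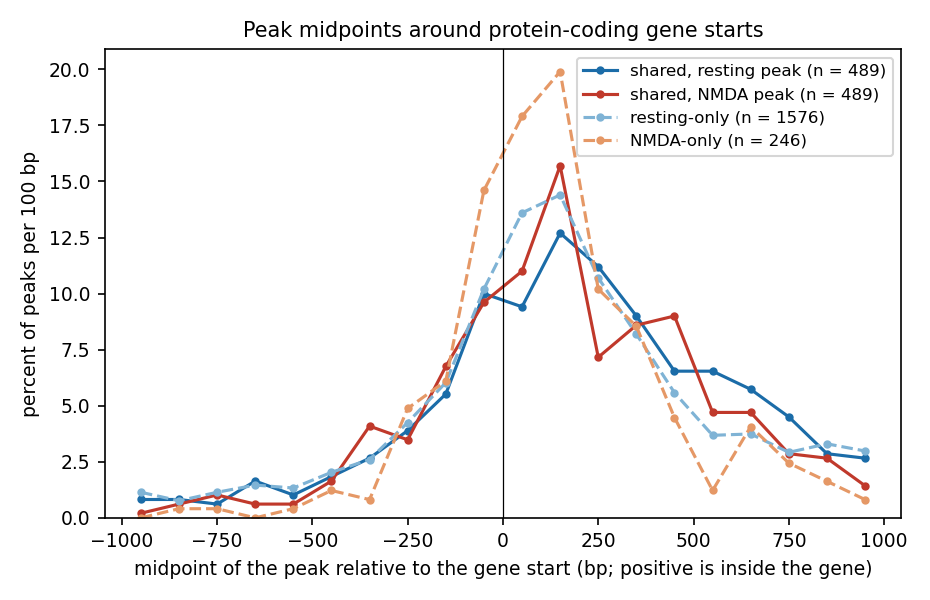
The x axis is the distance in bp from the gene start to the peak's midpoint, positive inside the gene, and the y axis the percent of peaks in each 100 bp. The shared peaks (solid lines, 489 peaks seen at rest and after NMDA) have medians of 186 and 162 bp, and resting-only (1576) and NMDA-only (246) peaks at starts are dashed.

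Some starts belong to a pair of genes that are transcribed away from or across each other. Of the 489 shared peaks at starts, 37 had protein-coding starts on opposite strands within 1 kb (7.57%, exact 95% interval 5.38 to 10.3%). The strongest was at the pair Trp53 and Wrap53, the tumour suppressor p53 and its antisense neighbour, with resting columns of 59.6 and 43.9 and NMDA columns of 8.83 and 10.3. Others were at Ddias and Prcp (77.7 at rest, 25.2 after NMDA), Atl1 and Map4k5 (59.1, 30.3), Pafah1b2 and Sik3 (57.8, 33.7), and Rmi1 and Hnrnpk (57.6, 31.3). Their resting strengths had a median of 27.5. The reads cannot assign such a peak to 1 gene of the pair.

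NMDA-only peaks had such pairs more often, in 40 of 246 cases (16.3%, 11.9 to 21.5%), a difference of −8.69 points for shared peaks (odds ratio 0.42, adjusted p = 0.000992, Fisher's exact test). Midpoints of NMDA-only peaks also lay closer to a gene end, at a median of 167 bp. The resting midpoints of shared peaks had a median of 294 bp and those of resting-only peaks 273 bp. These distances come from different lists, were limited to 1 kb by the choice and were not tested. Resting-only peaks had pairs in 137 of 1576 cases (8.69%, 7.35 to 10.2%), and the difference of −1.13 points did not pass (adjusted p = 0.458, exact test). The sign of that difference changed, to 0.55 points, among peaks stronger than the list's median, and was not called in either case.

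The promoters at these starts were mostly CpG-rich, defined as observed over expected CpG of at least 0.6 and a G+C share of at least 50% in the 300-base window. A listed promoter was found for 462 of the 489 peaks, and 411 of these were CpG-rich (89.0%, exact 95% interval 85.7 to 91.7%). Over all 15752 listed protein-coding promoters the share was 46.2%. Median observed over expected CpG was 0.85 for shared peaks, 0.82 for resting-only, 0.88 for NMDA-only peaks and 0.59 for all promoters.

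Resting-only peaks were at a CpG-rich promoter in 1187 of 1487 cases (79.8%, 77.7 to 81.8%), 9.14 points less than shared peaks (odds ratio 2.04, adjusted p = 1.29e-05, Fisher's exact test). The difference was 5.71 points among peaks wider than the median of the resting list (adjusted p = 0.0108, exact test). It was 13.9 points at an IDR up to 0.01 in both lists (adjusted p = 0.00058, exact test). At that IDR limit the groups changed, since a resting peak counted as resting-only when its NMDA peak did not pass. Of the 639 shared peaks, 441 passed at rest and 155 in both lists. The pooled odds ratio within strata of strength and width was 2.05 (1.45 to 2.89). NMDA-only peaks had 221 of 240 (92.1%, 87.9 to 95.2%), and the difference of −3.12 points did not pass (adjusted p = 0.348, exact test).

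**Figure D4:**
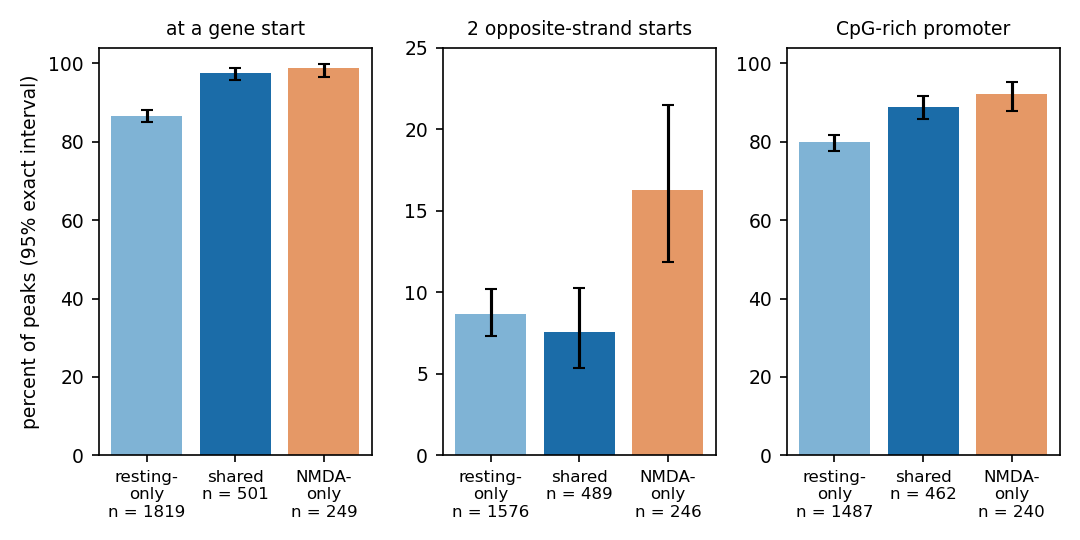
Bars are the percent of peaks at protein-coding gene ends that lie at a gene start (left), have protein-coding starts on opposite strands (middle, with its own axis) or have a CpG-rich promoter (right), for resting-only, shared and NMDA-only peaks, with exact 95% intervals. Shared peaks stand at 97.6%, 7.57% and 89.0%, above resting-only peaks in the left and right panels and below NMDA-only peaks in the middle one.

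Among the shared peaks themselves, the few at promoters that missed the CpG-rich limits were not the weakest. These promoters included that of Vav2, with observed over expected CpG of 0.11, and near misses such as Jun (0.59) and Mycn (0.58). The 51 had a median resting strength of 43.1, against 33.6 for the 411 at CpG-rich promoters, and NMDA medians of 22.7 and 24.5. When the 639 peaks were ordered by resting strength and divided into 4 groups of 159 or 160, CpG-rich promoters made up 89.6% in the weakest group (strength up to 25.8), 92.6% and 91.8% in the middle groups and 81.0% in the strongest (55.3 and above). The share at a gene start was 99.3% in the weakest group, 100% in the next, 96.6% in the third and 94.1% in the strongest. Median NMDA strength was 22.5, 22.8, 24.2 and 28.5 from the weakest to the strongest group. These are descriptions of peaks chosen by their strength in both lists and were not tested.

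A short form of the CTCF core, CNAGGNGGC on either strand, was looked for in the promoter windows because cohesin is often found where CTCF stops it. Each peak was given the listed promoter of the nearest start within 1 kb, whether or not the peak covered it. The resting peak covered the start in 83.6% of shared peaks at starts and 75.4% of resting-only ones. NMDA-only peaks covered it in 90.65%. The core was present in 90 of the 456 different promoters at shared peaks (19.7%) and in 15.5% of 1464 at resting-only peaks. It was present in 12.5% of 240 at NMDA-only peaks and 10.0% of all 15752. Among CpG-rich promoters alone the shares were 21.5%, 16.3%, 13.1% and 14.9%. The match is printed for the 4 shared peaks with the highest resting strength that have one, with the matching letters in capitals, on the gene's strand and build GRCm38.p6.
Snx18 chr13:113618691-113618720, minus strand: gtagccgccaCAAGGTGGCagcggcggccg
Sema5a chr15:32244599-32244628, plus strand: tgtgtagagaGCCCCCTGGggagtgtttgg
Sox11 chr12:27342826-27342855, minus strand: tgcaaactggCCAGGAGGCggggctggagg
Sema5b chr16:35541114-35541143, plus strand: gatgcagggcGCCCCCTCGcgctctcccgc
The resting peak covered all 4 sequences, and the NMDA peak all but that of Sema5a. In Snx18 and Sox11 the match was on the gene's strand and in Sema5a and Sema5b on the other. In the 4 groups by resting strength the match was present in 15.2%, 23.0%, 16.4% and 23.8% of promoters, from the weakest to the strongest. A match is a stretch of letters and not a measured CTCF site, and the window covers part of a peak or none of it.

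Of 11 further motifs searched on both strands, the GC box GGGCGG of SP1 was present in 77.4% of promoters at shared peaks (73.6% resting-only, 72.1% NMDA-only, 46.7% of all). The NRF1 letters GCGCANGCG were in 15.1% (16.7%, 26.2% and 9.10%), and the YY1 letters AANATGGCG in 2.19% (5.19%, 6.67% and 3.38%). The ETS letters CCGGAAG were in 14.3% (16.2%, 15.4% and 12%) and the CCAAT box in 37.9% (35.3%, 42.9% and 39.4%). The cyclic AMP response element TGACGTCA, bound by CREB, was in 3.51% (3.69%, 2.92% and 2.38%), and the AP-1 letters TGANTCA in 2.19% (3.35%, 2.50% and 7%). The E-box CACGTG was in 8.99% (10.9%, 13.3% and 8.01%) and TATAAA in 6.14% (5.94%, 2.08% and 13.7%). The ZNF143 letters ACTACANTT were in 2.85% and the ZBTB33 letters CTCGCGAGA in 1.97%, against 2.03% and 1.02% of all promoters. Among CpG-rich promoters alone, NRF1 letters were in 16.3% at shared peaks and 17.9% of all, ETS letters in 15.1% and 20.4%, and the E-box in 9.38% and 11.8%. For these 3 motifs the share at shared peaks thus lay above that of all promoters, but below it among CpG-rich ones. The GC box was in 81.2% and 76.9% of CpG-rich promoters and the YY1 letters in 1.98% and 6.0%. Matches of different motifs may overlap in a promoter, and none of the shares was tested.

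The genes at the shared peaks were then counted by function, against 3.14% of all 21900 protein-coding genes (688) with such a peak. A resting peak of any kind lay at the start or end of 14.3% (3123 genes). The lists were described by counts and not tested.

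Activity-induced genes were among those with a shared peak at the boundary. Early response genes had one in 4 of 32 cases (12.5%): Jun, with 72.0 at rest and 55.4 after NMDA, the phosphatase gene Dusp1 (51.4, 19.4), the stress gene Gadd45g (48.8, 19.9) and Klf10 (45.8, 37.4). At Jun the resting columns were 34.3 and 37.7 and the NMDA columns 33.2 and 22.1. A further 7 early response genes had a shared peak with a midpoint between 1 and 2 kb from a gene end: Fosb, Npas4, Gadd45b, Egr2, Ier5, Nr4a3 and Jund. Fosb had 122 at rest and 18.6 after NMDA, and Npas4 116 and 25.2. Within 500 bp of an end 2 genes of this list had a shared peak, and within 2 kb 11 had one, against 493 and 838 of all 21900 genes. Any resting peak lay at an end of 17 of the 32 early response genes (53.1%). Of these 17 genes 23.5% had a shared one, close to the 22.0% found when all protein-coding genes are counted this way. Late response genes had 3 of 20: the stress peptide gene Crh (90.7, 28.4), Homer1 (55.3, 24.2) and the kinase gene Pim1 (30.8, 21.2). The Kruppel-like factor family had 4 of 17: Klf7 (53.6, 19.5), Klf13 (47.2, 22.7), Klf10 and Klf5 (42.6, 19.8). Dual specificity phosphatases had 3 of 24: Dusp4 (52.2, 31.4), Dusp1 and Dusp7 (23.8, 20.7). Any resting peak lay at an end of 50.0% of late response genes, 58.8% of Kruppel-like factors and 41.7% of dual specificity phosphatases. These are 10 genes in each list, and 30.0%, 40.0% and 30.0% of them had a shared peak.

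Heat shock and chaperone genes had a shared peak in 6 of 31 cases (19.4%), and 8 of the 31 had any resting peak at an end. They were Hsp90aa1, the inducible cytosolic HSP90 (40.3 at rest, 23.4 after NMDA), the co-chaperones Dnajb9 (37.5, 25.9) and Dnaja1 (23.9, 32.8), Hsph1 (21.9, 18.7), and the mitochondrial chaperonin genes Hspd1 and Hspe1. The last pair is divergent and shares 1 peak (chr1:55087364-55088704, 23.0 and 28.3). Resting strengths of this list's 5 peaks ran from 21.9 to 40.3, against a median of 35.85 over all 639 peaks. Hsp90aa1 and Dnajb9 lay above that median and the others below it.

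Genes of cohesin and its regulators had 3 of 19: Smc3, the partner of SMC1 in the ring (40.1, 19.1), the acetyltransferase gene Esco1 (28.1, 27.0) and Ctcf (21.5, 27.6). Glutamate receptor genes had 3 of 23: the kainate receptor gene Grik4 (97.3, 46.4), Grm8, which encodes a metabotropic receptor (73.2, 24.7), and Grin3a, for a subunit of NMDA receptors (38.9, 28.2). Genes that carry calcium signals to CREB had 4 of 41: the kinase gene Camk1d (75.5, 25.6), the calcineurin subunit genes Ppp3ca (28.2, 39.2) and Ppp3r1 (17, 23.9), and the protein kinase A gene Prkacb (19.4, 29.2). The RNA polymerase II list had 3 of 40, namely Cdk9, the kinase that releases paused polymerase (70.4, 23.0), its inhibitor Hexim1 (40.0, 20.5) and Gtf2a1 (29.8, 18.9). Mediator had 2 of 32 (Cdk19 and Med4), splicing factors 2 of 44 (Hnrnpk and Hnrnpa2b1) and RNA helicases 3 of 53 (Ddx20, Dhx8 and Ddx5).

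Large families of housekeeping genes stood near or under the 3.14% of all genes. Ribosomal protein genes had 2 of 83, Rpl10a (62.3, 31.1) and Rpl7 (31.0, 30.8), mitochondrial ribosomal protein genes 1 of 78, and respiratory chain genes 2 of 100, Ndufaf4 (67.2, 26.9) and Ndufv1 (37.2, 20.1). Translation initiation factor genes had 1 of 56 and proteasome subunit genes 0 of 49 (exact upper limit 7.25%). Of mitochondrial ribosomal protein genes 28.2% had a resting peak of any kind at an end, and of proteasome genes 20.4%. Zinc finger genes had 9 of 470, solute carriers 11 of 375, led by Slc36a1 (89.6, 31.0) and Slc35f1 (67.1, 32.2), and genes named Tmem 7 of 238. Olfactory receptor genes had 0 of 1110 (upper limit 0.332%), clustered protocadherins 0 of 57 (6.27%) and Hox genes 0 of 39 (9.03%). Few of these genes had a resting peak of any kind at an end, which a shared peak requires. The counts were 1 olfactory receptor gene, 3 clustered protocadherins and 4 Hox genes.

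Lists of cell identity genes had few members and wide intervals. Pan-neuronal genes had 0 of 20 (upper limit 16.8%), and genes of inhibitory neurons 0 of 22 (15.4%). Only 2 genes of each of these lists had a resting peak of any kind at an end. Excitatory and projection neuron genes had 2 of 18, Pou3f3 (24.7, 20.8) and Cux1. Progenitor genes had 3 of 16, Id2, Id4 (53.9, 19.8) and Nes, and astrocyte genes 1 of 10, the glutamate transporter gene Slc1a2 (22.2, 24.4). Oligodendrocyte lineage, microglial and endothelial genes had 0 of 10 each (30.8%). Any resting peak lay at an end of 5 excitatory and projection neuron, 5 progenitor, 4 astrocyte and 3 oligodendrocyte lineage genes. None lay at microglial or endothelial genes, so no shared peak was possible there. The remaining lists had 2 of 19 (circadian clock, Hlf and Per2), 3 of 32 (ubiquitin, Ube2e3, Ube2n and Ube2m) and 2 of 37 (histone methylation and deacetylation, Kmt2c and Kmt2a). Break repair genes had 1 of 25 (Trp53), potassium channels 2 of 81 (Kcna3 and Kcnn1), forkhead factors 1 of 44 (Foxo3), Rab GTPases 1 of 59 (Rab5b) and histones 1 of 101 (H3f3a).

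**Figure D5:**
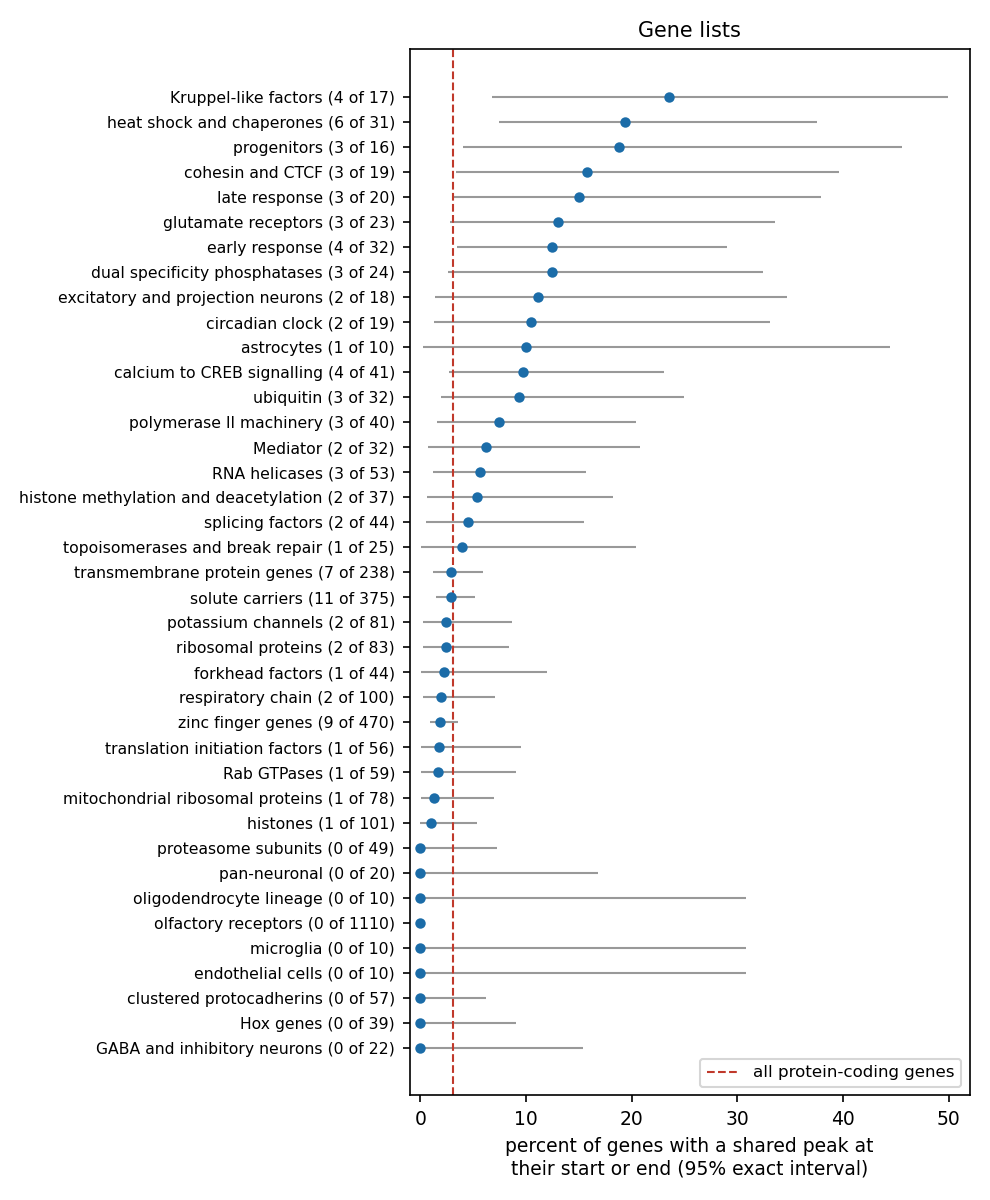
Points are the percent of protein-coding genes in each list with a shared peak within 1 kb of their start or end, with exact 95% intervals, and the number of genes is given beside each name. The dashed line is the 3.14% of all protein-coding genes, and the highest point is that of the Kruppel-like factors (4 of 17). Any resting peak lay at an end of 10 of those 17.

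Genes with a shared peak at a boundary were long, with a median of 38.9 kb (n = 688) against 27.3 kb for other genes with a resting-only peak there (n = 2435) and 17.1 kb for all protein-coding genes. An end of a long noncoding RNA gene lay within 1 kb of 93 of the 639 peaks (14.6%) and of 12.02% of resting-only peaks. A second resting peak lay within 10 kb in 165 cases (25.8%) and a second shared one in 56 (8.76%). For resting-only peaks at gene ends these shares were 20.5% and 2.60%. Within 50 kb they were 54.5% and 15.5% for shared peaks, and 57.2% and 8.01% for resting-only ones. The shares with a second shared peak depend partly on the rule. An NMDA peak that spans 2 resting peaks makes both shared, as 10 NMDA peaks did here, and a resting-only peak lies under none. These values were not tested.

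The limit of 1 kb cut through a continuous range. The 3 peaks nearest inside it were at Slc30a1 (993 bp, 36.2 at rest and 19.7 after NMDA), Cbfb (983 bp, 19.1 and 24.1) and Rapgef2 (975.5 bp, 20.8 and 31.7). The 3 shared peaks nearest outside were at Gab1 (1001.5 bp, 44.7 and 37.9), Slc6a9 (1004.5 bp, 18.5 and 19.6) and Ier5 (1012 bp, 58.5 and 32.2).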

How the data were processed

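SMC1 ChIP-seq peaks were analysed from 1 list for resting and 1 for NMDA-treated neurons. The builds mm10 and GRCm38.p6 and the programs BWA, MACS2, SAMtools, FastQC and Trimmomatic are named without settings per the submitters' processing notes. The lists have 20 columns and no header, in the layout of the IDR tool. The deposited −log10 p values are given per replicate column, and the deposited sum of both was used as strength. The deposited IDR score (up to 1000) was not used further. The lowest global IDR value in each deposited list corresponds to 0.05. The replicate columns carry no replicate numbers. Input libraries were not used here. Depths are unknown, so no count precision can be given. Intervals are exact Clopper-Pearson and cover counting over peaks.

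Gene positions came from the RefSeq table of GRCm38.p6. Strand and promoter sequences came from the RefSeq promoter table of the same build, with a promoter used when its listed start lay within 1 kb of the gene's outer start, a limit chosen after seeing the data. A peak was at a start when the outer start of a protein-coding gene of known strand lay within 1 kb of its midpoint, so internal starts were not counted. Two-sided Fisher's exact tests on shares were run in SciPy 1.17.1, adjusted by Benjamini-Hochberg over 6 tests, and strata with a Mantel-Haenszel odds ratio in statsmodels 0.14.6. The test script was checked on simulated peaks. Named peaks are the 20 strongest at rest, the 10 strongest after NMDA, the 5 widest, up to 4 genes per list, and the 3 nearest on either side of 1 kb. Others, such as the 3′ end peaks, opposite-strand pairs, genes with 2 peaks and genes beyond 1 kb, were chosen after their values were seen. The peaks and the 39 gene lists were chosen with earlier results of these data known. Motifs are short consensus forms from general knowledge.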

Additional observations from a re-analysis of the deposited data

How the results depend on the processing

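No paired analysis was possible because each condition has 1 merged peak list whose replicate columns carry no numbers. The alternatives changed the distance limit, the overlap, the IDR limit, the peaks compared and the CpG limits. The restriction to the strongest peak per gene, the strata, the 2 kb limit for the tests and promoters at any distance were added after seeing the data. The 3 differences that passed kept their direction and stayed past the threshold under every alternative run. An IDR up to 0.01 in both lists left 155 shared gene-end peaks of 639. Overlaps were then found anew among the peaks kept, so this alternative also changed the groups. A shared peak whose partner in the other list did not pass counted as resting-only or NMDA-only. Opposite-strand starts at this limit were at 7 of 115 shared and 9 of 48 NMDA-only peaks (adjusted p = 0.04, Fisher's exact test). With 1 replicate column in place of the sum, 57.1 to 62.9% of the peaks lay above the resting list's median (61.7% with the sum), and 53.8 to 54.0% above the NMDA list's median (57.4%). The uncalled difference in opposite-strand starts from resting-only peaks turned to 0.394 points at an IDR up to 0.01, to 0.553 points among stronger peaks, and to an odds ratio of 1.12 in strata (0.86 without them). Within 2 kb, the difference in the share at a start from NMDA-only peaks was −3.81 points and passed (adjusted p = 0.00331, Fisher's exact test). The cause was not tested. Counts for single gene lists moved by over 1.5 times in 16 cases with another distance limit and by less in 62. Unknown depth and 1 list per condition limit every comparison between resting and NMDA strengths.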

Other observations

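None of the 639 shared gene-end peaks lay on the X chromosome, which holds 966 protein-coding genes. The resting list had 114 peaks on X, of which 17 were at protein-coding gene ends, and the NMDA list had 5. Of the 114 resting peaks on X, 0 were overlapped by an NMDA peak (exact upper limit 3.18%), against 10.7% of all resting peaks. Of the 17 at protein-coding gene ends, 0 were overlapped (upper limit 19.5%), against 22.0% of such peaks in the whole list. The Y chromosome, with 256 protein-coding genes, also had 0 of the peaks. On the autosomes, the peaks numbered from 1.72 per 100 protein-coding genes on chromosome 7 to 5.01 on chromosome 12. The X chromosome was singled out after its values were seen, and the difference was not tested.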
